A study of Mus musculus and Homo sapiens with 10 samples.

Results

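Double-strand breaks in DNA were counted over 10 genes of intestinal fat absorption and chylomicron assembly in mouse jejunal enterocytes: the apolipoprotein genes Apoa1, Apoa4, Apoc3 and Apob, the lipid transfer gene Mttp, the fatty acid binding protein genes Fabp1 and Fabp2, and the uptake genes Cd36, Scarb1 and Npc1l1. The members were named by function, and each was taken as its RefSeq gene body on GRCm38.p6, from the lowest to the highest annotated base. They are 10 of the 21883 protein-coding genes on the main chromosomes, and all 10 passed the filter on low counts that left 17805 genes for testing. The assay was in-suspension BLISS, in which break ends are blunted in lysed cells or nuclei, ligated to an adapter, amplified by in vitro transcription and sequenced, so that each value is a count of break ends at a single base. The series holds 10 libraries, of which the 6 used here came from enterocytes of the jejunum sorted by surface Cd73, the ectonucleotidase encoded by Nt5e: 2 Cd73 negative, 2 Cd73 mid and 2 Cd73 high. The other 4 libraries, from the human cell line TK6, were not analysed here.

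The libraries of a gate are named M1 and M2 as in the labels, and pairs of values below are in that order. The labels give no genotype, strain, age or treatment for the mice, and do not say whether M1 and M2 are separate animals. The p-values thus reflect differences between these libraries, which may be technical. In the edgeR test the spread used for a gene came almost wholly from all genes together, and little from its own libraries. Main-chromosome break ends numbered 13043514 and 12585228 in the Cd73 negative, 4757961 and 5160171 in the Cd73 mid, and 1522615 and 1272771 in the Cd73 high libraries, so the high gate gave the least precise values. Positions with over 1 break end held between 6.32% (high M1) and 26.2% (negative M2) of a library's break ends. Break ends are DNA measurements, so the sort could not be checked by RNA levels. Nt5e itself held 51.0 and 51.1 CPM (counts per 1000000 gene-body break ends after TMM scaling) in the negative, 72.0 and 68.7 in the mid and 90.1 and 65.0 in the high libraries, and the high gate did not overlap the negative one (log2 fold change 0.62, SE 0.19, adjusted p = 0.325, edgeR quasi-likelihood test).

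Dietary fat reaches the enterocyte as fatty acids, monoglycerides and cholesterol, which cross the brush border membrane in part through transporters and are carried in the cytosol by small binding proteins. Fat rebuilt in the endoplasmic reticulum is loaded by the microsomal triglyceride transfer protein onto apolipoprotein B, and the particle, a chylomicron, gains further apolipoproteins before it is secreted into lymph. Several of these genes are among the strongly expressed genes of absorptive enterocytes, and Apoa1, Apoc3 and Apoa4 lie side by side in a conserved gene cluster.

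The RefSeq promoter table (GRCm38.p6, 250 bases before to 50 after a start) matched 8 of the 10 members; Apoc3 and Scarb1 had no entry. Promoters of 6 members are shown to set Apob, whose window was the densest of the 8, and the single-base pile-ups of Mttp, Npc1l1 and Apoa1 beside the scattered break ends of Apoa4, and because Fabp1 had the largest fitted difference among the 10 members in Cd73 high against negative and in high against mid. Each is written 5′ to 3′ on the strand of the gene, and capitals mark the bases at which at least 1 break end was listed in any of the 6 libraries.
Apob, chr12:7977427-7977726, plus strand: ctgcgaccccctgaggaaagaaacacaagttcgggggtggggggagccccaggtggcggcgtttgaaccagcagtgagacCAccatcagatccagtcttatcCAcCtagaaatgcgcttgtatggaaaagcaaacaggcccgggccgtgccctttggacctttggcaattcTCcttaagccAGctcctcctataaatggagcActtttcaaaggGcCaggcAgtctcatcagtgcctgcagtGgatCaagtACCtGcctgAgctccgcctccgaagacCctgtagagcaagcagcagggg
Mttp, chr3:138143369-138143668, minus strand: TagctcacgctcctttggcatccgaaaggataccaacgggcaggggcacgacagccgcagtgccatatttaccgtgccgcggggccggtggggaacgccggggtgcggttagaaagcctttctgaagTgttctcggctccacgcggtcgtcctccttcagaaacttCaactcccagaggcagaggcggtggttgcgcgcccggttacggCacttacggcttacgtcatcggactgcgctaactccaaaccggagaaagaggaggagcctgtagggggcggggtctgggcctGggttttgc
Npc1l1, chr11:6230196-6230495, minus strand: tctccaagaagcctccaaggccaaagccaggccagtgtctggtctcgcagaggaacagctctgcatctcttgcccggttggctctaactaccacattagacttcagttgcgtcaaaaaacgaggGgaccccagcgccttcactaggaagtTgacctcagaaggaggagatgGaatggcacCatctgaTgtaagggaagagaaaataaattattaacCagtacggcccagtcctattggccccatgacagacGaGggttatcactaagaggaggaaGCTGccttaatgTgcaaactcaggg
Apoa1, chr9:46228380-46228679, plus strand: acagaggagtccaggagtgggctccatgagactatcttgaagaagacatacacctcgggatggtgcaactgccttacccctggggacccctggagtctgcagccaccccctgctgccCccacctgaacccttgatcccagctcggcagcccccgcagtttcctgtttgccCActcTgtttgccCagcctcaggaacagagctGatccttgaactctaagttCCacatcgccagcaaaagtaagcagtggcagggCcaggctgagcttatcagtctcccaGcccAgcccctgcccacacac
Apoa4, chr9:46240594-46240893, plus strand: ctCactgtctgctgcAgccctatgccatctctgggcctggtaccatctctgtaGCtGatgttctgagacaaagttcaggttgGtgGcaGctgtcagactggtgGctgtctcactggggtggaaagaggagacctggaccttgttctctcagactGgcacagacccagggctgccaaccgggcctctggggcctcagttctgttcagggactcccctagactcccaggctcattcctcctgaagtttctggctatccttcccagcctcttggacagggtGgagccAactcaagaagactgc
Fabp1, chr6:71199629-71199928, plus strand: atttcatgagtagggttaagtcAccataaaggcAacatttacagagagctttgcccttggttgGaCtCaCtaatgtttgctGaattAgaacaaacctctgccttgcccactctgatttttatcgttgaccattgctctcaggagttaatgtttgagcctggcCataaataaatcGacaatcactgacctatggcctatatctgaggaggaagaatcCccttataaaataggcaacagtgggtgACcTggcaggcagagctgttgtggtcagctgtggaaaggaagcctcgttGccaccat

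In these windows the Apob promoter held 68 break ends at 21 bases over the 6 libraries, spread on both sides of the start. The Mttp promoter held 48 at 5 bases, of which 41 were at 1 base 250 bases before the start. Npc1l1 held 26 at 13 bases, 12 of them at 1 base 27 bases after the start. Fabp1 held 34 at 15 bases with at most 5 at any base, Apoa1 23 at 11 bases with 12 at 1 base, and Apoa4 13 at 12 bases with at most 2 at any base. The motif TATAAA, searched on both strands, was in the Apob and Fabp1 windows only among the 8 matched members, and 12.6% of 21262 promoters of this length hold it. The Mttp window had 27 CG pairs against a median of 13 over all promoters, and Apob had 9, Npc1l1 7, Apoa1 4, Fabp1 3 and Apoa4 1. A match describes letters in this window and is not evidence of binding.

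Levels were set against each other as break density, in break ends per kb of gene per 1000000 main-chromosome break ends of the library. Apoa1 and Apoa4 were the 2 densest members at percentiles 99.1 and 98.0 of all genes tested, while Cd36 was the only member below the median gene (0.595). The order of the mean over 6 libraries was Apoa1 (2.99 ± 0.78, SD), Apoa4 (2.38 ± 0.58), Fabp1 (1.05 ± 0.49), Apoc3 (0.914 ± 0.49), Npc1l1 (0.789 ± 0.057), Scarb1 (0.735 ± 0.096), Fabp2 (0.723 ± 0.19), Apob (0.678 ± 0.12), Mttp (0.656 ± 0.085) and Cd36 (0.390 ± 0.042). Of the 9 neighbouring pairs in this order, only Mttp and Cd36 had ranges over the 6 libraries that did not overlap. Short genes were denser in general: the median density was 1.02 in the shortest of 4 length classes and 0.474 in the longest. Against their own length class, Apoa1 and Apoa4 lay at percentiles 96.2 and 92.3, Scarb1 at 95.5, Apob at 73.8, Mttp at 70.3, Npc1l1 at 68.5, Fabp1 at 52.2, Apoc3 at 43.4, Fabp2 at 29.6 and Cd36 at 25.7. High density over all genes was thus shared by Apoa1 and Apoa4, whereas Fabp1 and Apoc3 were near the middle of the shortest class, and Scarb1 was high in the longest class. The classes are broad. The median length was 5.56 kb in the shortest, against 1.84 kb for Apoa1, 2.587 kb for Apoc3 and 2.615 kb for Apoa4. It was 107 kb in the longest, against 64.0 kb for Scarb1. These percentiles can therefore still carry an effect of length.

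**Figure D1:**
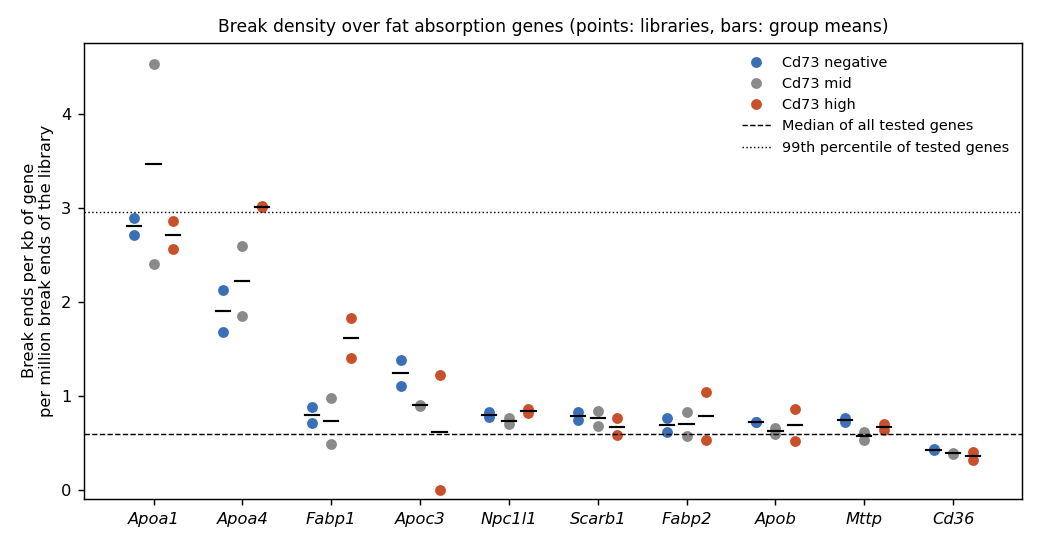
Break density (break ends per kb of gene per 1000000 main-chromosome break ends of the library, linear axis) of the 10 members in each of the 6 libraries, with points for libraries, bars for the mean of the 2 libraries of a gate, a dashed line at the median (0.595) and a dotted line at the 99th percentile (2.95) of 17805 genes. Apoa1 and Apoa4 lie above the other 8 members on average, and Cd36 lies below the dashed line in all 6 libraries.

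Apoa1 encodes the main protein of high density lipoprotein and is also carried on chylomicrons (chromosome 9, bases 46228630 to 46230469, plus strand). It held 65 and 67 break ends in the negative, 21 and 43 in the mid and 8 and 6 in the high libraries. Its density was 2.71 and 2.89, 2.40 and 4.53, and 2.86 and 2.56 in the same order. Every library placed it between percentiles 97.6 and 99.7 of the genes tested, and mid M2 was the highest and mid M1 the lowest. Compared with the 500 kb around the gene, 250 kb on each side, it was denser by a factor of 5.01 ± 1.24 (SD, n = 6) and in all 6 libraries. Counting intervals in the high gate were wide, from 3.45 to 15.8 break ends for the 8 observed in high M1 (95% Poisson, covering counting error only).

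Apoa4 encodes an apolipoprotein that enterocytes secrete during fat absorption (chromosome 9, 46240844 to 46243458, plus strand). It held 57 and 70, 23 and 35, and 12 and 10 break ends, and its density was 1.67 and 2.13 in the negative, 1.85 and 2.59 in the mid and 3.01 and 3.0 in the high libraries. Both high libraries lay above the other 4. It was denser than the surrounding 500 kb by a factor of 4.01 ± 1.03, again in all 6 libraries.

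Apoc3, whose product inhibits lipolysis of triglyceride-rich particles, lies between these genes (46233050 to 46235636) and did not share their density. It held 37 and 45, 11 and 12, and 0 and 4 break ends, with densities of 1.10 and 1.38, 0.894 and 0.899, and 0 and 1.21. The library high M1 was at 0, where the 95% Poisson interval reaches 3.69 break ends or a density of 0.937. That limit is above both mid values and below both negative values and high M2. The value of high M2 rests on 4 break ends (95% Poisson interval 1.1 to 10.2). Its ratio to the surroundings was 1.52 ± 0.82 and above 1 in 5 libraries. The 7.79 kb between the 3 gene bodies had a density of 1.39 and 1.05 in the negative, 0.810 and 1.34 in the mid and 1.01 and 1.11 in the high libraries, which was lower than Apoa1 and Apoa4 in each library.

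**Figure D2:**
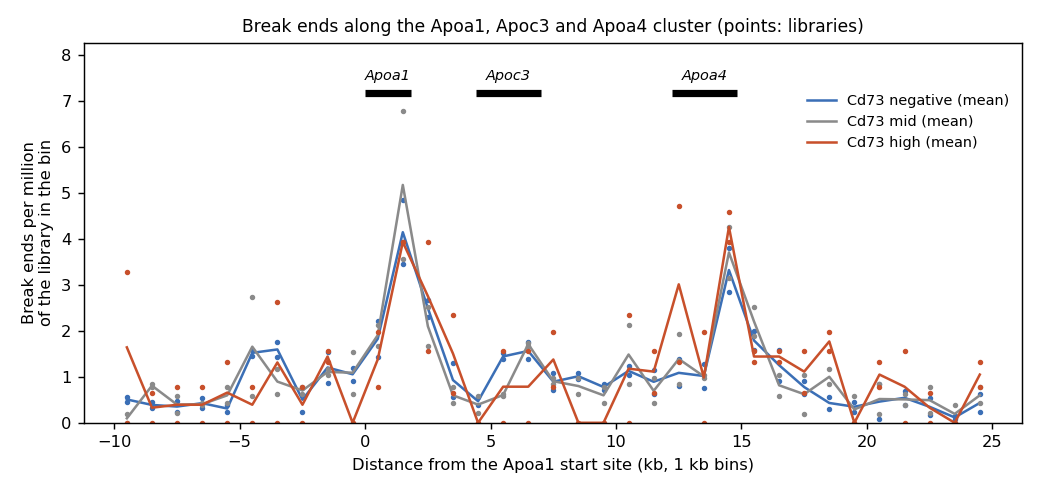
Break ends per 1000000 main-chromosome break ends of the library in 1 kb bins, from 10 kb before to 25 kb after the start of Apoa1, with points for libraries, lines for the means of the 2 libraries of each gate and bars for the gene bodies. The bin that holds the end of Apoa1 (4.42 on average) and the bin that holds the end of Apoa4 (3.77) are the highest of the 35 bins, and Apoc3 shows no such peak.

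Within Apoa1 and Apoa4 the break ends lay towards the 3′ end and not at the start. In Apoa1 the 3′ 50% of the gene held 60% and 77.6% of the break ends in the negative, 61.9% and 74.4% in the mid and 75.0% and 83.3% in the high libraries, all above 50%. In Apoa4 the shares were 68.4% and 84.3%, 82.6% and 71.4%, and 83.3% and 40.0%, where high M2 was the exception and rests on 10 break ends. Cd36 was the other member above 50% in all 6 libraries, with a mean of 54.5% ± 2.7, and Apob, Mttp and Npc1l1 were below 50% in all 6. The Cd36 start in the promoter table, 17835896, lies near the middle of its gene body (17781690 to 17888959). Its 5′ 50% therefore lies almost wholly upstream of that start, and its share is not comparable with those of Apoa1 and Apoa4. Among genes with a start in the promoter table, 6.98% were above 50% in all 6 libraries, against 2 of the 8 members with a start.

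The last kb of Apoa1 had a density of 4.28 ± 1.11 (SD, n = 6) and that of Apoa4 3.85 ± 0.87. These were the highest of the 8 members and lay at percentiles 99.7 and 99.6 of genes, where the median was 0.460. The first kb of both genes was close to the median first kb of genes (1.74), at 1.70 ± 0.54 and 1.77 ± 1.49; in Apoa1, which is 1.84 kb long, the first and last kb overlap. The kb after the end was also dense, at 2.88 ± 0.98 for Apoa1 and 1.6 ± 0.90 for Apoa4, against a median of 0.451. A single base near the end was listed in 5 of the 6 libraries in each gene, at 46230406 in Apoa1 (4 and 3, 1 and 3, 1 and 0 break ends) and at 46243117 in Apoa4 (2 and 6, 0 and 3, 3 and 1). Of all listed positions in protein-coding genes, 0.197% were in 5 or more libraries.

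**Figure D3:**
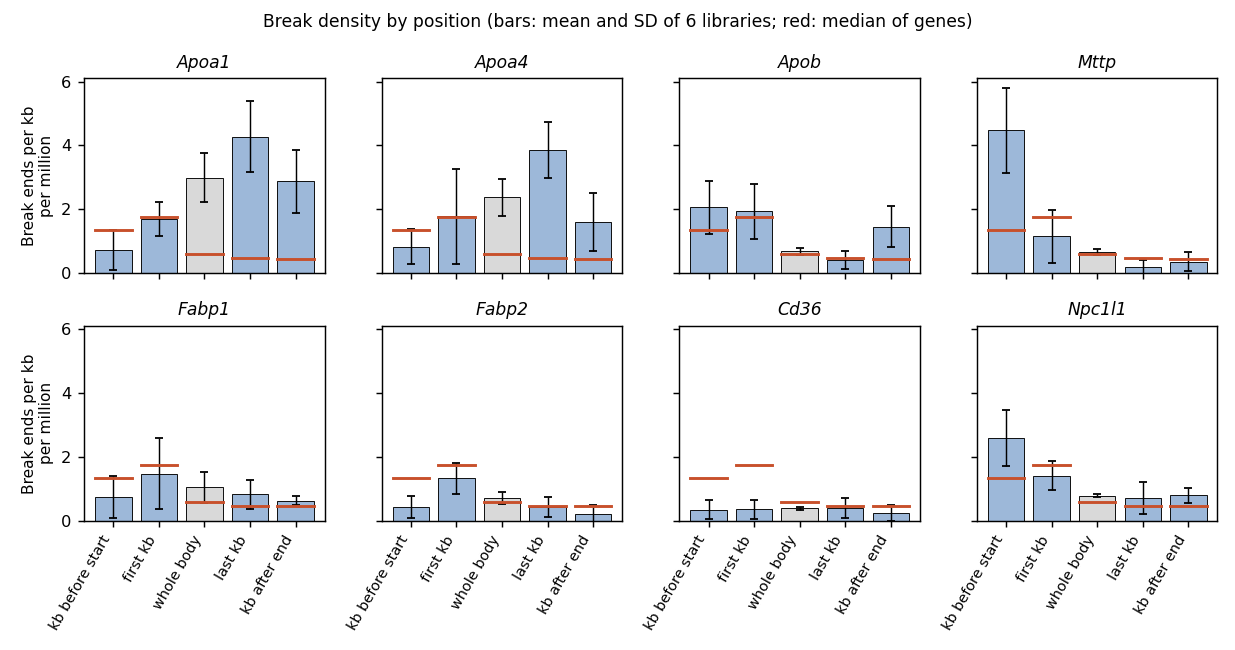
Break density (break ends per kb per 1000000) in the kb before the start, the first kb, the whole body, the last kb and the kb after the end of the 8 members with a start in the promoter table. Bars are means and error bars SDs of 6 libraries. Red lines are medians over 13994 genes, except for the whole body, where they are medians over the 17805 genes tested. Apoa1 and Apoa4 rise towards the end (4.28 and 3.85), whereas Mttp is highest before the start (4.48).

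Apob encodes the structural protein of the chylomicron (chromosome 12, 7977629 to 8016839, plus strand). It held 367 and 356, 110 and 133, and 31 and 43 break ends, and its density was 0.718 and 0.721 in the negative, 0.590 and 0.657 in the mid and 0.519 and 0.862 in the high libraries. The 2 high libraries were the lowest and the highest of the 6, so the gates could not be ordered. It was denser than the 500 kb around it in all 6 libraries, by a factor of 1.65 ± 0.33. The first kb is 2.55% of its length and held 4.36% and 7.58%, 6.36% and 3.76%, and 12.9% and 9.30% of its break ends. At 1.93 ± 0.85, the density of this kb was at percentile 53.9 of genes. The promoter window shown above had a density of 6.07 ± 2.40, at percentile 82.6 of promoters, and its break ends numbered 12 and 36, 6 and 8, and 3 and 3. Both high libraries had a larger share in the first kb than the other 4, on 4 break ends each, with an exact permutation p of 0.33, the smallest that 2 against 2 libraries can give. The same held for Fabp1, Fabp2 and Cd36, on 1 to 4 break ends in a high library. How many of all genes share this was not counted.

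Mttp encodes the large subunit of the transfer protein that lipidates apolipoprotein B (chromosome 3, 138089855 to 138143418, minus strand). It held 529 and 482, 133 and 170, and 57 and 43 break ends, and its density was 0.757 and 0.715, 0.522 and 0.615, and 0.699 and 0.631. Both mid libraries lay below the other 4. Its kb before the start had a density of 4.48 ± 1.33, at percentile 94.7 of genes. The gene Trmt10a begins 29 bases beyond the Mttp body, so all but 29 bases of this kb lie inside Trmt10a, and these break ends belong to the Mttp promoter and the Trmt10a body alike. The base with 41 break ends, at 138143668, had 20 and 15 in the negative, 2 and 4 in the mid and 0 and 0 in the high libraries. Inside the gene, 3 of 1011 listed positions were in 5 libraries, at 63, 10382 and 16435 bases from the start. In all protein-coding genes, 0.197% of listed positions were in 5 or more. The base at 63 held 7 and 5, 1 and 1, and 1 and 0 break ends. The base at 10382 held 5 and 4, 2 and 3, and 0 and 1.

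Fabp1 encodes the liver-type fatty acid binding protein (chromosome 6, 71199879 to 71205034, plus strand). It held 59 and 46, 24 and 13, and 11 and 12 break ends, and its density was 0.877 and 0.709 in the negative, 0.978 and 0.489 in the mid and 1.4 and 1.83 in the high libraries. Both high libraries lay above the other 4, and of those 4 mid M1 was the highest and mid M2 the lowest. The first kb, 19.4% of the gene, held 25.4% and 19.6%, 12.5% and 23.1%, and 36.4% and 33.3% of its break ends. Fabp2, the intestinal fatty acid binding protein (chromosome 3, 122895072 to 122899506, plus strand, overlapped by the lncRNA 4933405D12Rik), held 44 and 34, 12 and 19, and 7 and 3 break ends. Its density was 0.761 and 0.609, 0.569 and 0.830, and 1.04 and 0.531, and the gates overlapped throughout. Its first kb, 22.5% of the gene, held a mean of 41.8% ± 13.8 of its break ends.

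Cd36, a fatty acid translocase (chromosome 5, 17781690 to 17888959, minus strand), was the sparsest member. It held 595 and 575, 201 and 210, and 51 and 55 break ends, and its density was 0.425 and 0.426, 0.394 and 0.379, and 0.312 and 0.403. Its first kb, counted from the start in the promoter table at 17835896, had a density of 0.353 ± 0.30, at percentile 10.3 of genes. The gene body extends past that start, to others upstream. Its busiest recurrent base, 17798609, lay 37287 bases downstream of the start in the promoter table and was listed in 5 libraries (8 and 11, 6 and 2, 1 and 0).

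Scarb1, the scavenger receptor that takes up cholesterol from lipoproteins (chromosome 5, 125277087 to 125341094, no strand in the table and overlapped by the lncRNA Gm32701), held 615 and 663, 207 and 275, and 74 and 47 break ends. Its density was 0.737 and 0.823, 0.680 and 0.833, and 0.759 and 0.577, with overlap between all gates. Its ratio to the 500 kb around it was 1.02 ± 0.034, but the mean ratio depended on the window. It was 1.24 with protein-coding gene bodies left out of the surroundings and 1.30 with 100 kb around the gene. The 1 kb at 125340087 to 125341086, at the upper end of the gene, held 194 of its break ends, 52 and 80, 20 and 25, and 14 and 3, against a median of 23 over its 65 windows. Npc1l1, the intestinal cholesterol transporter that ezetimibe blocks (chromosome 11, 6211011 to 6230245, minus strand), held 207 and 186, 64 and 76, and 24 and 21. Its density was 0.825 and 0.768, 0.699 and 0.766, and 0.819 and 0.858, the smallest spread relative to the mean among the 10 members. The kb before its start had 2.58 ± 0.88. Of the 398 listed positions of Npc1l1, 3 were in 5 libraries, at 27, 2266 and 2659 bases from the start. The base at 27 held 6 and 3, 1 and 1, and 1 and 0 break ends.

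Position and surroundings were compared across the members. The first kb held more than its share of the length in all 6 libraries for Apob, Fabp2 and Npc1l1, that is 3 of 8 members, against 51.7% of 13884 genes. The first kb was 2.85 times as dense as the body in Apob, 1.84 times in Fabp2, 1.79 times in Npc1l1, 1.75 times in Mttp and 1.41 times in Fabp1, and 0.905, 0.746 and 0.570 times in Cd36, Apoa4 and Apoa1. Against the first kb of other genes, these lay at percentiles 53.9, 40.2, 42.0, 35.6, 43.4, 10.3, 50.6 and 49.0 in the same order. A first kb denser than the body was common, as the median first kb of genes was 1.74 and the median body 0.595. Members denser than their surroundings in all 6 libraries were Apoa1, Apoa4, Apob, Mttp, Fabp2 and Npc1l1, 6 of 10, against 40.8% of the genes tested. Apoa4, Fabp1 and Npc1l1 were denser than their surroundings in both high libraries and by more than in any negative library, 3 of 10 against 16.0% of genes. Cd36 alone went the other way. Its ratio to the surroundings in the high libraries (0.874 and 0.878) was below that in every mid and negative library. The share of all genes with such a fall was not counted. Positions listed in 3 or more libraries made up between 2.45% (Cd36) and 7.81% (Apoa1) of a member's listed positions, against 3.69% in all protein-coding genes.

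The 3 gates were compared in a single edgeR fit of all 6 libraries, with p-values adjusted over the 17805 genes by Benjamini-Hochberg and called under 0.05. High against negative and mid against negative share the negative libraries, and high against mid shares libraries with both, so the comparisons are not independent. No member was called in any of them. In CPM, summed over the 10 members, the libraries held 390 and 376 in the negative, 349 and 370 in the mid and 376 and 407 in the high gate, so on this scale the 2 mid libraries were the lowest of the 6 and the high and negative libraries overlapped. As density over unscaled main-chromosome totals, the same sums were 0.658 and 0.669, 0.565 and 0.637, and 0.602 and 0.639, where both high libraries lay below both negative ones and overlapped the mid ones, so the order of the gates depends on the scale.

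In Cd73 high against negative, 0 of 10 members were called, against 0.00562% of genes (1 of 17805; DESeq2 also called 0 members). At an unadjusted p under 0.05, 2 members were higher and 0 lower, against 4.64% and 4.11% of genes, or 1557 genes in all (697 by DESeq2). These 2 were Fabp1 and Apoa4; by DESeq2 only Fabp1 was under it, with unadjusted p-values of 0.0269 and 0.0981. Fabp1 was 17.5 ± 3.5 CPM in high and 7.89 ± 1.5 in negative libraries (SD, n = 2), and the fitted log2 fold change by edgeR was 1.13 with an SE of 0.41 and an adjusted p of 0.394. Apoa4 was 16.5 ± 0.20 and 9.53 ± 1.3 CPM, with a fitted value of 0.79 (SE 0.40) and an edgeR adjusted p of 0.562. Both sat above the negative libraries without overlap, but neither passed adjustment. Without high M2 the unadjusted edgeR p of Fabp1 was 0.0989, and that of Apoa4 was 0.134 without high M2, 0.153 without high M1 and 0.124 without negative M1. Counting and scaling choices also moved the unadjusted edgeR p of Apoa4 across 0.05. It was 0.0503 with no filter, 0.0681 without TMM, 0.112 with each position counted as 1, 0.190 after thinning and 0.0883 with 1 kb added. It was 0.0068 with the gene length offset, 0.0371 with the replicate block, 0.0482 with only the groups compared and 0.0467 without high-count positions. That of Fabp1 was 0.0687 with 1 kb added and under 0.05 under the others. Over the alternatives run, the Fabp1 value ranged from 0.68 to 1.33 with a lowest adjusted p of 0.214. The Apoa4 value ranged from 0.59 to 1.07 with a lowest of 0.421.

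In CPM, 4 of the 10 members lay above the negative libraries without overlap (Apoa1, Apoa4, Fabp1 and Npc1l1) and 0 below, against 21.1% and 21.0% of genes. For Apoa1 the lower high library was at 10.004 and the higher negative one at 9.991 CPM. On the density scale, which uses unscaled totals, only Apoa4 and Fabp1 lay above without overlap and Cd36 and Mttp lay below. The shares of all genes were counted in CPM only, so these members have no share beside them on the density scale. The median log2 fold change of the members was 0.06 and that of all genes -0.0021. The intervals were narrow for the long genes: Mttp had -0.02 (95% interval -0.37 to 0.33), Apob 0.04 (-0.36 to 0.44), Cd36 -0.14 (-0.48 to 0.20) and Scarb1 -0.08 (-0.41 to 0.25). Npc1l1 had 0.19 (-0.31 to 0.70), Apoa1 0.08 (-0.80 to 0.96) and Fabp2 0.35 (-0.74 to 1.45). The Apoc3 value of -1.02 (-2.46 to 0.41) is a fitted value and no bound, since it rests on high M1 at 0; it was 0.11 without high M1 and -7.56 without high M2. Leaving out high M1 also turned the sign of Fabp2 (-0.23) and Cd36 (0.0547), and leaving out high M2 that of Apob (-0.36) and Scarb1 (0.0687); the sign of Mttp turned without high M2 or without negative M1 (0.0599).

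In Cd73 mid against negative, 0 of 10 members were called, against 0% of genes (0 of 17805; 563 at an unadjusted p under 0.05 by edgeR, 51 by DESeq2, which also called 0). Mttp was 60.7 ± 4.4 CPM in mid and 76.0 ± 5.8 in negative libraries, a fitted log2 difference of -0.32 (SE 0.14) with an edgeR adjusted p of 0.998, and ranged from -0.40 to -0.24 over the alternatives. The unadjusted p of Mttp was 0.0210 by edgeR, 0.220 by edgeR after thinning to the shallowest library (log2 difference -0.28) and 0.0911 by DESeq2. It was under 0.05 in the other alternatives that kept both libraries of each of these 2 gates. The fitted value was -0.24 without negative M1 and -0.25 without mid M1. Mttp was the 1 member below an unadjusted p of 0.05 on the lower side, where 1.80% of genes lay, and 0 were on the higher side, where 1.36% lay. In CPM, Apoc3, Apob and Mttp, 3 of 10, lay below the negative libraries without overlap and 0 above, against 15.9% and 15.0% of genes. On the density scale, where the share of all genes was not counted, Cd36 and Npc1l1 lay below as well. Apoa1 was 12.6 ± 5.0 and 9.91 ± 0.11 CPM, a log2 fold change of 0.37 (SE 0.28) that rested on mid M2 and was -0.13 without it. Fabp1 had -0.08 (95% interval -0.73 to 0.58), and 0.39 without mid M2. The members' median was -0.07, beside 0.0030 for all genes.

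In Cd73 high against mid, 0 of 10 members were called, against 0% of genes (0 of 17805; 805 at an unadjusted p under 0.05 by edgeR, 259 by DESeq2). Fabp1 was 17.5 ± 3.5 and 7.64 ± 3.9 CPM, a fitted log2 difference of 1.2 (SE 0.45) with an edgeR adjusted p of 0.9998. The value was 1.81 without mid M1 and 0.73 without mid M2, where its unadjusted edgeR p-value rose to 0.135. Without high M2 that p-value was 0.0912. Fabp1 was the 1 member at an unadjusted p under 0.05 on the higher side, beside 1.99% of genes, and 0 were on the lower side, beside 2.53%. In CPM, Apoa4, Mttp, Fabp1 and Npc1l1, 4 of 10, lay above the mid libraries without overlap and 0 below, against 16.6% and 17.2% of genes. The members' median was 0.23, beside 0.0020 for all genes. Differences of Fabp1 in high against both other gates use the same 11 and 12 break ends of the high libraries.

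**Figure D4:**
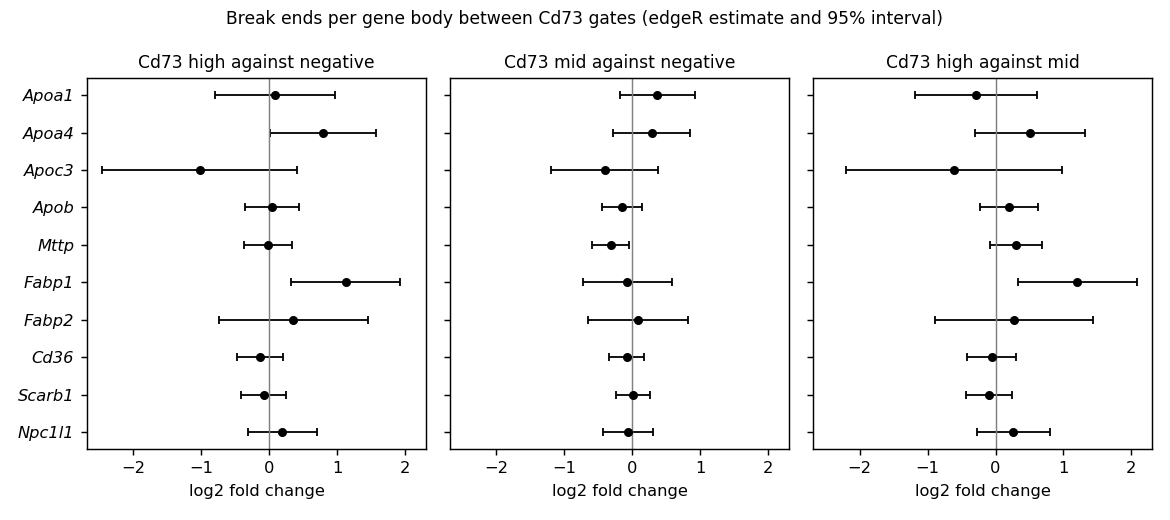
edgeR log2 fold changes of break ends per gene body (points) with 95% intervals (bars) for the 10 members in the 3 comparisons of Cd73 gates. The intervals of Fabp1 in high against negative (0.33 to 1.93) and high against mid (0.33 to 2.08), Apoa4 in high against negative (0.01 to 1.57) and Mttp in mid against negative (-0.59 to -0.05) leave out 0 before adjustment, and the Apoc3 intervals are the widest in each panel.

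No other gene of fat handling was called either. All 46 genes of a list of re-esterification, lipid droplet, secretion, sterol transport and regulatory genes were tested, and 0 were called in each comparison. Their median log2 fold change was -0.15 in high against negative, with 15 of 46 above 0, -0.07 in mid against negative (14 of 46) and -0.01 in high against mid (21 of 46). Their median density was 0.737, and 36 of 46 were above the median gene. In high against negative the smallest p-values were those of Apoe, an apolipoprotein of remnant particles (log2 fold change -0.84, SE 0.43), Slc27a4, a fatty acid transport protein (-0.52, SE 0.28), and Dgat2, a triglyceride synthesis enzyme (-0.38, SE 0.21). Dgat1, the other enzyme of that step, held 23.8 and 23.7 CPM in the negative, 22.5 and 22.5 in the mid and 32.8 and 33.3 in the high libraries, with high above both other gates (0.55 against mid, SE 0.29, adjusted p = 0.9998, edgeR). Acsl5, Abcg8 and Lpcat3 had the smallest p-values in mid against negative, at -0.32, -0.32 and -0.28, and Nr1h4, the bile acid receptor gene, in high against mid, at 0.40.

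Break ends in marker genes of other cell types were summed beside these values. The 10 enterocyte markers held 287 to 304 break ends per 1000000 in the negative, 245 to 258 in the mid and 217 to 218 in the high libraries, and their median log2 fold change in high against negative was -0.30, where 0 of 10 were above 0 (1 of 10 in mid against negative). On these values the high gate, which had the highest Fabp1 and Apoa4 densities, had the lowest sums of this list. The 6 tested of 7 lymphocyte markers held 52.7 to 65.8, 54.5 to 61.4 and 66.0 to 80.8, with a median log2 fold change of 0.67 in high against negative and 5 of 6 above 0. Median log2 fold changes in high against negative were 0.02 for goblet (5 tested), 0.34 for Paneth (3 tested), -0.12 for enteroendocrine (6), 0.13 for tuft (5), 0.04 for stem (4) and -0.05 for stromal and endothelial markers (6). No marker gene was called in any comparison. A break end in a marker gene does not show that the gene is expressed, and the part of other cells in the results on the 10 members was not tested.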

How the data were processed

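The 6 libraries of sorted mouse enterocytes were made by in-suspension BLISS. BWA placed the reads on GRCm38, per the submitters' processing notes; its version, any mapping filter and the treatment of duplicates are each not given in the sources used here. Each deposited file holds raw counts of break ends per base, without strand. As no source says whether a count is of molecules or of reads, the Poisson intervals cover counting error only.

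Counts were summed over the bodies of 21883 protein-coding genes (RefSeq, GRCm38.p6). They were tested with edgeR 4.0.16 in R 4.3.3 (quasi-likelihood F test after filterByExpr and TMM, 1 fit of 3 groups, Benjamini-Hochberg over 17805 genes, threshold 0.05), after a check on simulated counts. Its spread came almost wholly from all genes together (common dispersion 0.0066). A two-sided exact permutation test compared single values and cannot go below 0.33 with 2 libraries a group. Density used unscaled main-chromosome totals. Starts and strands came from the RefSeq promoter table.

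The members, gene lists and tests were chosen with earlier results of these data known. The text names all 10 members, Nt5e, up to 3 further fat absorption genes per comparison by smallest p, and the 3 genes most like the summed members over libraries. As alternatives, the fit was repeated in DESeq2 1.42.0, without TMM, without the filter, with each position counted as 1, without positions over 100 break ends, after thinning to 1272771 break ends, with 1 kb added to gene bodies, with a gene length offset, with a replicate block, with only the groups compared, and without each library in turn; other windows were tried for density. Sums and plots were made in Python 3.11.15 (numpy 2.4.6, pandas 2.3.3, matplotlib 3.10.9, scipy 1.17.1).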

Additional observations from a re-analysis of the deposited data

How the results depend on the processing

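No member was called in any of the 3 comparisons under any alternative run, with a lowest adjusted p of 0.214. Depth limits the short members, which held 0 to 12 break ends in the high libraries. Genes called in high against negative numbered 1, and 0 with no filter, 5 with the gene length offset and 0 to 2 with a library left out; in mid against negative they numbered 0, and 1 with each position counted as 1. Deviations of same-numbered libraries went together for negative and mid (r 0.34) but not for negative and high (-0.04) or mid and high (-0.05), so the numbers were not taken to pair the libraries throughout. With M1 and M2 as a replicate block 44 genes were called in high against negative (39 higher, 5 lower) and 4 in mid against negative, none of them members, and genes at an unadjusted p under 0.05 in mid against negative rose from 563 to 1439. Library size scaling moved the median of all genes to -0.06. Fold changes near 0 changed sign, and the cause was not tested. In high against negative, Apob was -0.0215 with library size scaling and -0.0525 with each position counted as 1, Npc1l1 -0.14 after thinning and Apoa1 -0.01 with 1 kb added. In mid against negative, Scarb1 was -0.0006 with no filter, -0.014 with library size scaling, -0.0501 with each position counted as 1, -0.0427 after thinning, -0.0002 with 1 kb added and -0.0053 with the length offset; Apob was 0.41 after thinning, Fabp2 -0.12 with 1 kb added and Fabp1 0.0002 with the length offset. In high against mid, Apoc3 was 0.026 with 1 kb added. With each library left out in turn, high against negative ranged from -0.0986 to 0.0599 for Mttp, -7.56 to 0.11 for Apoc3, -0.23 to 0.70 for Fabp2, -0.34 to 0.0547 for Cd36, -0.36 to 0.39 for Apob and -0.30 to 0.0687 for Scarb1. Mid against negative ranged from -0.69 to 0.39 for Fabp1, -0.10 to 0.11 for Scarb1, -0.15 to 0.0244 for Npc1l1, -0.18 to 0.30 for Fabp2 and -0.13 to 0.70 for Apoa1. High against mid ranged from -0.26 to 0.14 for Cd36, -0.62 to 0.20 for Apoa1, -0.30 to 0.0578 for Scarb1, -7.15 to 0.52 for Apoc3, -0.32 to 0.61 for Fabp2 and -0.21 to 0.55 for Apob. Where a library was left out, the lone library of its gate was assumed to vary like the other groups. Members denser than their surroundings in all 6 libraries numbered 6 or 7 of 10 under every window, and those denser near the start than over the body 5 or 6 of 8. Over genes in general the median first kb (1.74) was also denser than the median body (0.595).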

Other observations

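Krit1, Nudt9 and Rbm26 had the profile over the 6 libraries most like that of the 10 members summed, with Pearson r of log2 CPM of 0.993, 0.992 and 0.983; with 6 libraries and 17805 genes to choose from, this is a description only. The 2 negative libraries differed in how often a member's break ends fell on positions with over 1: 21.6% and 57.8% in Apoc3, 31.6% and 58.6% in Apoa4, and 27.1% and 6.52% in Fabp1, whereas Apob had 25.1% and 24.7% and Cd36 25.5% and 25.4%. The 1 kb of Fabp1 with the most break ends pooled over libraries, a sum that the deep negative libraries dominate, at 71203879 to 71204878 on chromosome 6, held 19 and 16 break ends in the negative, 3 and 2 in the mid and 1 and 2 in the high libraries; its mean over libraries of 0.996 per 1000000 was below that of the first kb of Fabp1 (1.47).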
